A study of Mus musculus with 4 samples.

Results

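The mouse genes whose symbol is Zfp followed by a 3-digit number starting with 9 were compared between Trim28 knockout and wild-type embryonic stem cells, which are cultured from the blastocyst and can form every tissue of the embryo. Trim28 is also called KAP1 or TIF1-beta. The numbers are those of the gene nomenclature and carry no ranking by function. A gene counted as a member when at least 1 probe set of the array was annotated to its symbol and to no other. This gave 32 members among the 18820 genes tested, against 281 genes numbered below Zfp900. Another 15 symbols of the number range occurred on probe sets listed with several genes and on no other, and are described separately.

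KAP_KO, the knockout group, had 2 samples with the genotype KAP1 fl/fl that were exposed to 4-hydroxytamoxifen, which starts the conditional deletion. KAP_WT, the reference cells, had 2 samples labelled wild type and also with 4-hydroxytamoxifen. Exposure lasted 24 h and was followed by 48 h of culture without the drug, and the labels' protocol also names an ethanol vehicle. All cells grew on irradiated embryonic fibroblasts. The study's design text sets cells before the conditional deletion against cells after it, whereas the sample labels give KAP_WT a wild-type genotype and the drug, so what the KAP_WT cells are is not settled. The sources used here do not give the Cre driver, the number of clones or whether both genotypes come from 1 line, so a difference between lines cannot be told apart from the loss of Trim28. They also do not say that the replicates, labelled biological, were separate cultures, so the p-values measure the spread between these samples only. Each sample was hybridised to 1 Affymetrix Mouse Gene ST 1.1 array, and the values are log2 expression, so that a difference of 1 is a 2-fold change.

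Zinc finger proteins of this kind carry a row of C2H2 fingers, each of which contacts a few bases of DNA. Many also carry a KRAB domain, through which they recruit Trim28. Trim28 in turn brings the histone methyltransferase Setdb1 and heterochromatin proteins, and in embryonic stem cells this machinery silences endogenous retroviruses. The genes arose by repeated duplication, lie in tandem clusters, and in rodents include many copies with no human counterpart. In human cells Trim28 itself has been found at the zinc finger exons of such genes. In mice, deletion of the chromosome 4 cluster of KRAB zinc finger genes has been reported to raise transcripts of some retroviral elements. Which of the 32 members encode a KRAB domain was not analysed here.

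Several zinc finger genes of chromosome 4, among them members that rose, resemble each other in their promoters. Zfp991, a further member of chromosome 4 that rose, had no promoter entry and could not be compared. Bases upstream of the annotated start (250 for each gene, RefSeq, build GRCm38.p6, plus strand) are shown for Zfp985 and Zfp980, members that rose in the knockout, and for Zfp982 and Zfp987, which are named on most of the shared chromosome 4 probe sets. For Zfp982, which has 3 annotated starts in that table, the start most like that of Zfp985 is shown. Capitals mark the longest stretch that all 4 windows hold.
Zfp985, chr4:147553027-147553276: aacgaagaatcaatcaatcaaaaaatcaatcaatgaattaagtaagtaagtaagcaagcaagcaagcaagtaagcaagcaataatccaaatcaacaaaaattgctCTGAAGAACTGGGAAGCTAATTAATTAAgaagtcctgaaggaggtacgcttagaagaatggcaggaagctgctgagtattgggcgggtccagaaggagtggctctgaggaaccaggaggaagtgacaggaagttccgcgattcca
Zfp980, chr4:145670447-145670696: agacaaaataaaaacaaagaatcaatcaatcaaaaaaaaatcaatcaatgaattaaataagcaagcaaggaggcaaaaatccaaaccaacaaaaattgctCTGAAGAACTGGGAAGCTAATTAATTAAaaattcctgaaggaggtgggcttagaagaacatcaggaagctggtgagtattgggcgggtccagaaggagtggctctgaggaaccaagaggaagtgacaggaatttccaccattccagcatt
Zfp982, chr4:147492167-147492416: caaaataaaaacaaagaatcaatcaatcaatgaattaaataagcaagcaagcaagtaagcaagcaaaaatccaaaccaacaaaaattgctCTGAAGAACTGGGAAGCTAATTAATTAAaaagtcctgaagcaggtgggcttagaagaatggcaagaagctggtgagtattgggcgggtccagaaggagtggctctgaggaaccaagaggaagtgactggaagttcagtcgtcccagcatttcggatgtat
Zfp987, chr4:146097062-146097311: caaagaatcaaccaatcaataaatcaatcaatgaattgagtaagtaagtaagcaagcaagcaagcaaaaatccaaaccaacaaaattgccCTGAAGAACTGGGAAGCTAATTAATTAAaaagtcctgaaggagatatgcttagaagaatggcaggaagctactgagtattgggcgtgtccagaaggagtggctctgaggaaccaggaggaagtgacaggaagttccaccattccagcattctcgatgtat

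The capitals are 28 bases long. Among 32851 promoter windows of 300 bases in the same RefSeq table, searched on both strands, 6 held this stretch (0.0183%). All 6 belonged to zinc finger genes of chromosome 4, namely Zfp980, Zfp982, Zfp985, Zfp987, Zfp988 and Zfp534. The stretch was taken from the 4 windows shown, so these were bound to be among the 6, and only Zfp988 and Zfp534 were found by the search. The 4 windows shown were 79.6 to 87.4% identical to each other in global alignments. The Zfp982 start was chosen for its likeness to Zfp985, which may raise the identities that include Zfp982. Without Zfp982, identity was 79.6% for Zfp985 and Zfp980, 83.8% for Zfp985 and Zfp987, and 79.9% for Zfp980 and Zfp987. As a contrast, the windows of the member with the largest rise outside chromosome 4 and of the member with the largest fall were 43.5 to 50.9% identical to the 4 windows shown or to each other. Zfp979 and Zfp933, chromosome 4 members that did not pass, lack the stretch, and the identity of their windows to these was not computed. Capitals in the next windows mark matches to the motifs searched below, of which that of Zfp948 held none.
Zfp948, chr17:21566728-21566977: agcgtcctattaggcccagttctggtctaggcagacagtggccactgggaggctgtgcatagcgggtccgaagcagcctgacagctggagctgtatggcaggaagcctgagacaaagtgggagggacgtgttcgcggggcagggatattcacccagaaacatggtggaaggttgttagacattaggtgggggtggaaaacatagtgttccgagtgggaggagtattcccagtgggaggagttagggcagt
Zfp961, chr8:71950816-71951065: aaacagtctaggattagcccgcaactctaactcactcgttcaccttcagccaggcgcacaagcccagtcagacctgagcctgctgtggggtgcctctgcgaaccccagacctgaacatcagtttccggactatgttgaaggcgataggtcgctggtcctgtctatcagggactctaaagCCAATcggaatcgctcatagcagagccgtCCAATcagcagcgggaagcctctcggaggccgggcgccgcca

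The arrays were close within groups, where Pearson's correlation across probe sets, a description since probe sets are no replicates, was 0.995 in KAP_KO and 0.994 in KAP_WT, against 0.974 to 0.976 across groups. Trim28, the deleted gene, read 8.97 and 8.92 in KAP_KO samples and 11.29 and 11.37 in KAP_WT samples (limma log2 change -2.38, SE 0.09, adjusted p = 3.39e-05). The 10 stem cell markers averaged 10.16 and 9.98 in KAP_KO samples and 10.47 and 10.46 in KAP_WT samples, far above the array medians; 6 of them fell and 1 rose. Fibroblast markers, which feeder cells share, were higher in KAP_KO in 12 of 16 cases and lower in 0 (means per sample 6.36 and 6.34 in KAP_KO, 5.13 and 4.78 in KAP_WT). All 4 tested 2-cell-stage markers, of 8 listed, rose (7.37 and 7.17 in KAP_KO, 3.98 and 3.86 in KAP_WT). So did 5 of 8 trophoblast markers and 5 of 7 primitive endoderm markers. Of 5 tested neural markers 2 rose and 2 fell. Over all tested genes 14.2% rose and 12.7% fell. Whether any of these cell states takes part in the changes below was not tested, and in bulk samples more cells of a type and more RNA per cell cannot be told apart.

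Of the 32 zinc finger genes, 6 were higher and 5 were lower in KAP_KO cells, and 21 did not pass an adjusted p of 0.05 in limma. That is 34.4% of the members, where 26.9% of all tested genes passed, 14.2% of them as rises and 12.7% as falls. The share is not far from the background of this comparison. The median change of the members was 0.03, with -0.05 over all genes and -0.03 over the 281 genes numbered below Zfp900, of which 34 rose and 41 fell. Rises of at least 2-fold were found for 3 members (9.38%) against 4.44% of all genes, and falls of that size for 0 members against 1.46% of all genes. With 32 members these shares rest on few genes and are not read as a trait of the members. Zfp985 and Zfp991, which are among the 3, lie in 1 cluster of chromosome 4. The members' changes ran from -0.79 to 1.82. With each array's median over the tested genes subtracted, which moved the median change of all genes to -0.22, 4 members were higher and 9 lower, where 11.0% and 34.0% of all genes were. Zfp933, Zfp950, Zfp971 and Zfp974 were then among the lower ones.

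**Figure D1:**
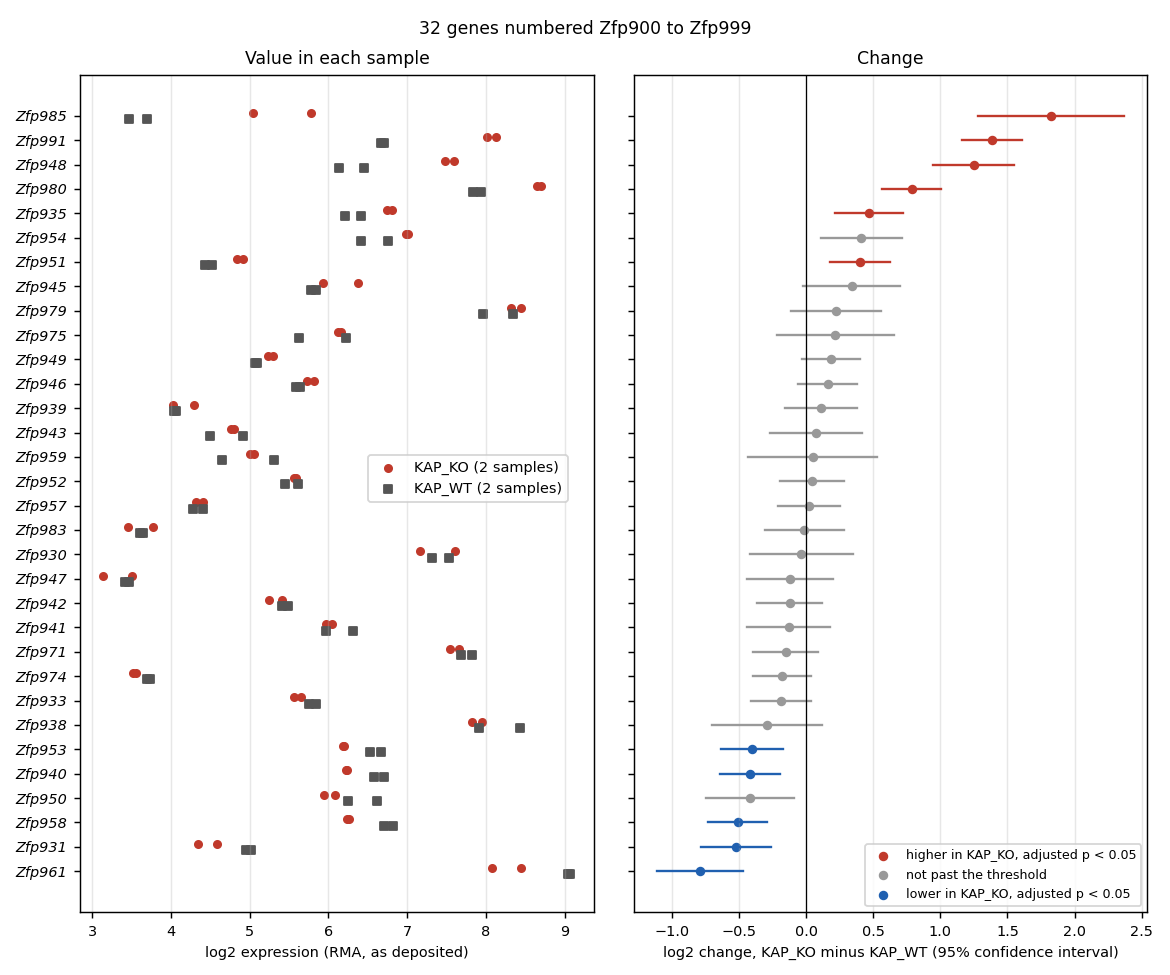
The left panel gives the log2 expression of each of the 32 genes in the 2 KAP_KO samples (circles) and the 2 KAP_WT samples (squares), and the right panel the log2 change, KAP_KO minus KAP_WT, with its 95% confidence interval from limma. The 4 genes at the top rose by 0.79 to 1.82 and stand clear of the others, and the 5 blue genes near the bottom fell by 0.40 to 0.79.

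**Figure D2:**
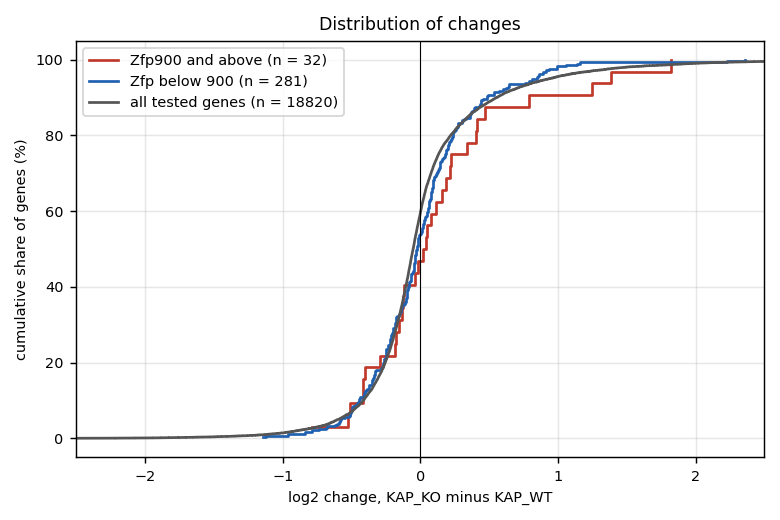
Each line gives the cumulative share of genes, in percent, against the log2 change, KAP_KO minus KAP_WT, for the 32 members, the 281 genes numbered below Zfp900 and all 18820 tested genes; the axis leaves out changes beyond 2.5 in either direction. The lines run close together around 0, and the members' line lags on the right, where 3 members lie above a change of 1.

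The largest 2 rises among the members were those of Zfp985 and Zfp991, both on chromosome 4. Zfp985 read 5.77 and 5.04 in KAP_KO samples and 3.47 and 3.70 in KAP_WT samples, a log2 change of 1.82 (SE 0.23, adjusted p = 0.00176) or 3.54-fold. Both knockout samples were far above both wild-type samples, although the knockout samples also differed from each other by more than those of the other rising members. The wild-type values lie below the lower quartile of the tested genes on their arrays (3.80 and 3.79), and no detection calls were used here, so the fold holds for array values only.

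Zfp991 read 8.02 and 8.13 in KAP_KO samples and 6.71 and 6.67 in KAP_WT samples. The replicates of each group lay close together, and the change of 1.38 (SE 0.09, adjusted p = 1.70e-04, 2.61-fold) had the lowest adjusted p of all members. Zfp980, whose promoter is shown above, read 8.65 and 8.69 in KAP_KO samples and 7.84 and 7.93 in KAP_WT samples, without overlap. Its change was 0.79 (SE 0.09, adjusted p = 0.00134).

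The same stretch of chromosome 4 held members that did not pass. Zfp979 read 8.32 and 8.45 in KAP_KO samples and 7.97 and 8.35 in KAP_WT samples, so that the groups overlapped (log2 0.22, 95% confidence interval -0.11 to 0.56, adjusted p = 0.298). Zfp933 read 5.56 and 5.65 in KAP_KO samples and 5.84 and 5.75 in KAP_WT samples (log2 -0.19, interval -0.41 to 0.04, adjusted p = 0.199). The intervals of Zfp979 and Zfp933 do not reach the changes of the 3 rising members. In annotated order the members run Zfp980, Zfp991, Zfp985, Zfp979, Zfp933, and those that rose stand at the Zfp980 end. When members within 1 Mb of the next were joined, the last 4 formed 1 cluster with 2 rises and 0 falls. With 2 Mb, a distance chosen after the values were seen, Zfp980 joined them, and the cluster then held 2 further tested genes. Of these the zinc finger gene Zfp600, between Zfp980 and Zfp991, read 5.64 and 5.71 in KAP_KO samples and 4.74 and 4.89 in KAP_WT samples (log2 0.86, adjusted p = 0.00128). The ribosomal pseudogene Rps19-ps3, next to Zfp933, had a change of -0.23 (adjusted p = 0.199). Taken by chromosome, 3 of 5 members on chromosome 4 rose and 0 fell (median change 0.79), while on the 10 other chromosomes 3 of 27 rose and 5 fell (median -0.01); over all tested genes 14.2% rose and 12.7% fell. The chromosomes were set apart after their values were seen, so this split has no test.

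**Figure D3:**
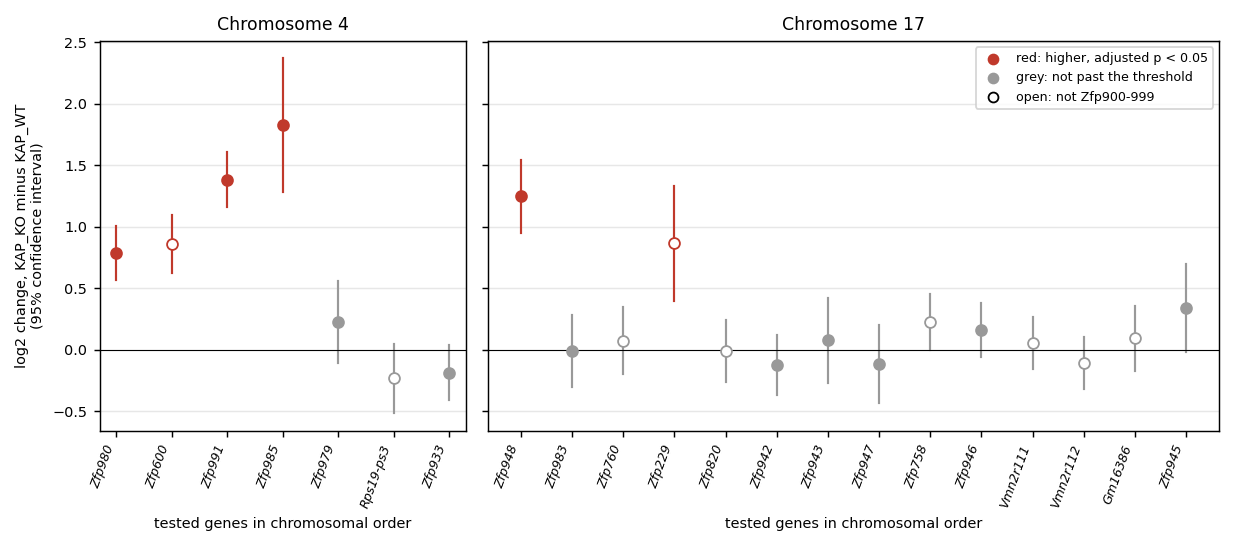
Log2 changes, KAP_KO minus KAP_WT, with 95% confidence intervals, of the tested genes from the first to the last member of the chromosome 4 cluster (members joined within 2 Mb) and of the chromosome 17 cluster, in chromosomal order and not to scale in distance. On chromosome 4 the first 4 genes rose by 0.79 to 1.82, and on chromosome 17 Zfp948 and Zfp229 rose while the other 12 genes did not pass.

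Chromosome 17 held the largest cluster, with 7 members, each within 1 Mb of the next. Of these 1 passed, as a rise, where 14.2% of all tested genes rose. Zfp948, at its edge, read 7.49 and 7.60 in KAP_KO samples and 6.45 and 6.14 in KAP_WT samples, again without overlap. The change was 1.25 (SE 0.13, adjusted p = 7.60e-04), or 2.37-fold. The neighbouring members moved little. Zfp983, Zfp942, Zfp943, Zfp947 and Zfp946 had changes between -0.12 and 0.16, and Zfp945, at the other edge, read 5.93 and 6.37 in KAP_KO samples and 5.78 and 5.84 in KAP_WT samples (log2 0.34, adjusted p = 0.151). Among the 7 other tested genes between them, the zinc finger gene Zfp229 rose by 0.86 (adjusted p = 0.0183), and the others, which include the vomeronasal receptor genes Vmn2r111 and Vmn2r112, did not pass. Zfp952 and Zfp959 lie elsewhere on the chromosome and had changes of 0.04 and 0.05.

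The remaining rises were small. Zfp935 on chromosome 13 read 6.81 and 6.75 in KAP_KO samples and 6.41 and 6.20 in KAP_WT samples (log2 0.47, SE 0.11, adjusted p = 0.0180). Zfp951 on chromosome 5 read 4.92 and 4.84 in KAP_KO samples and 4.44 and 4.52 in KAP_WT samples (log2 0.40, SE 0.09, adjusted p = 0.0199). Neither gene's groups overlapped, yet both calls were lost when array medians were subtracted (adjusted p = 0.0594 and 0.0781) and when single samples were left out. Zfp935 was not called without KAP_KO replicate 1 or KAP_WT replicate 2 (change 0.37 to 0.57 over the 4 leave-outs). Zfp951 was called in 1 of the 4 leave-outs, that without KAP_KO replicate 2 (0.36 to 0.44).

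The falls were of at most 1.73-fold. Zfp961 on chromosome 8, whose protein has been reported in mouse cells to bind the primer binding site of retroviruses primed by a lysine tRNA, fell most. It read 8.08 and 8.45 in KAP_KO samples and 9.07 and 9.04 in KAP_WT samples, a change of -0.79 (SE 0.13, adjusted p = 0.00607). Both knockout samples were lower than both wild-type samples, but the call was lost without KAP_WT replicate 1 (adjusted p = 0.0667) or KAP_WT replicate 2 (0.0632).

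Zfp931 on chromosome 2 read 4.58 and 4.35 in KAP_KO samples and 4.96 and 5.01 in KAP_WT samples (log2 -0.52, SE 0.11, adjusted p = 0.0136). Zfp971, its neighbour, read 7.54 and 7.66 in KAP_KO samples and 7.82 and 7.68 in KAP_WT samples and did not pass (log2 -0.15, adjusted p = 0.327). Zfp958 on chromosome 8 read 6.24 and 6.26 in KAP_KO samples and 6.82 and 6.70 in KAP_WT samples (log2 -0.51, SE 0.09, adjusted p = 0.00805). In Zfp931 and Zfp958 the groups did not overlap, and the knockout samples were the lower ones.

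Zfp940 on chromosome 7 read 6.22 and 6.23 in KAP_KO samples and 6.71 and 6.58 in KAP_WT samples (log2 -0.42, SE 0.09, adjusted p = 0.0182). Zfp953 on chromosome 13 read 6.20 and 6.18 in KAP_KO samples and 6.52 and 6.66 in KAP_WT samples (log2 -0.40, SE 0.10, adjusted p = 0.0219). The knockout samples of these genes were almost equal and lower than both wild-type samples. Zfp940 and Zfp953 were called in 0 of the 4 leave-outs, Zfp931 in 1 and Zfp958 in 3 (its call was lost without KAP_WT replicate 1, adjusted p = 0.0621). Without KAP_WT replicate 1 the count of members that fell was 0, without KAP_WT replicate 2 (Zfp958 and Zfp950) or KAP_KO replicate 2 it was 2, and without KAP_KO replicate 1 it was 3. Zfp985, Zfp991, Zfp948 and Zfp980 passed in all 13 alternatives, with changes of 1.46 to 2.19, 1.21 to 1.44, 1.08 to 1.40 and 0.62 to 0.83.

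Among the 21 members that did not pass, the largest changes were those of Zfp950, Zfp954 and Zfp945. Zfp950 on chromosome 19 read 5.95 and 6.08 in KAP_KO samples and 6.61 and 6.25 in KAP_WT samples (log2 -0.42, adjusted p = 0.0649). It is the 1 member with a second probe set of its own, which read 3.07 and 3.17 in KAP_KO samples and 3.81 and 3.29 in KAP_WT samples and so had a change in the same direction (-0.43). Zfp954 on chromosome 7 read 6.98 and 7.01 in KAP_KO samples and 6.42 and 6.75 in KAP_WT samples (log2 0.41, adjusted p = 0.0541). In Zfp950 and Zfp954 the wild-type samples differed more from each other than the knockout samples did, and in Zfp945, described above, the knockout samples did.

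The other 18 were Zfp930, Zfp933, Zfp938, Zfp939, Zfp941, Zfp942, Zfp943, Zfp946, Zfp947, Zfp949, Zfp952, Zfp957, Zfp959, Zfp971, Zfp974, Zfp975, Zfp979 and Zfp983. Their changes ran from -0.29 to 0.22 and their adjusted p from 0.181 to 0.955. The 95% confidence intervals of these genes lay between -0.70 and 0.65, so changes of more than about that size were not detected in any of them. In 13 of the 18 the groups overlapped. Over all 32 members, KAP_KO samples lay wholly above KAP_WT samples in 10 and wholly below in 9; over all genes the shares were 26.6% and 38.6%, or 65.2% in either direction, so this separation is common in the comparison. Only Zfp947, Zfp974 and Zfp983 had a mean level below the lower quartile of the tested genes.

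Probe sets listed with several genes cover further symbols of the number range, often together with members described above. The annotation names 47 genes of the number range, and 29 probe sets pair at least 1 of them with other genes. In a fit over all 35556 probe sets, 9 of the 29 were higher and 1 was lower in KAP_KO. Over all probe sets, of which 12457 are unnamed here, 7.1% were higher and 5.44% lower. That share is not a like background for named sets. Of the genes tested singly 14.2% were higher, but in the separate fit over genes. That fit called 6 members higher where the fit over all probe sets called 4, so its share is not a like background either. Of the 11 that name chromosome 4 genes, 8 rose and 0 fell, and KAP_KO samples lay above KAP_WT samples in all 11. Except for the set of Zfp534 and Zfp987, each of the 8 also names Zfp985, Zfp991 or Zfp980. These members were called higher on their own probe sets, so the 8 are not separate from them. Over all probe sets KAP_KO lay wholly above in 21.5% and wholly below in 36.7%. Of these 11, 2 have the same values in every sample and count as 1 measurement. The changes of the 11 ran from 0.38 to 1.29. Without KAP_KO replicate 1, KAP_KO replicate 2 or KAP_WT replicate 1, 2 of the 29 were called higher, and without KAP_WT replicate 2, 3 were.

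A probe set of Zfp985 and Zfp982 read 5.46 and 5.61 in KAP_KO samples and 4.30 and 4.19 in KAP_WT samples (log2 1.29, adjusted p = 0.00486). One of Zfp985, Zfp982 and Zfp987 read 6.63 and 6.67 in KAP_KO samples and 5.64 and 5.54 in KAP_WT samples (log2 1.06, adjusted p = 0.00580). All knockout samples were higher in both. A probe set of Zfp991, Zfp987, Zfp992 and Znf41-ps read 10.38 and 10.43 in KAP_KO samples and 9.83 and 9.72 in KAP_WT samples (log2 0.63, adjusted p = 0.0199). Since each of these probe sets is listed with several genes, which of them is higher cannot be told from it. Cross-hybridisation to related genes may also reach the probe sets listed with 1 gene, and transcript sequences were not compared here.

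**Figure D4:**
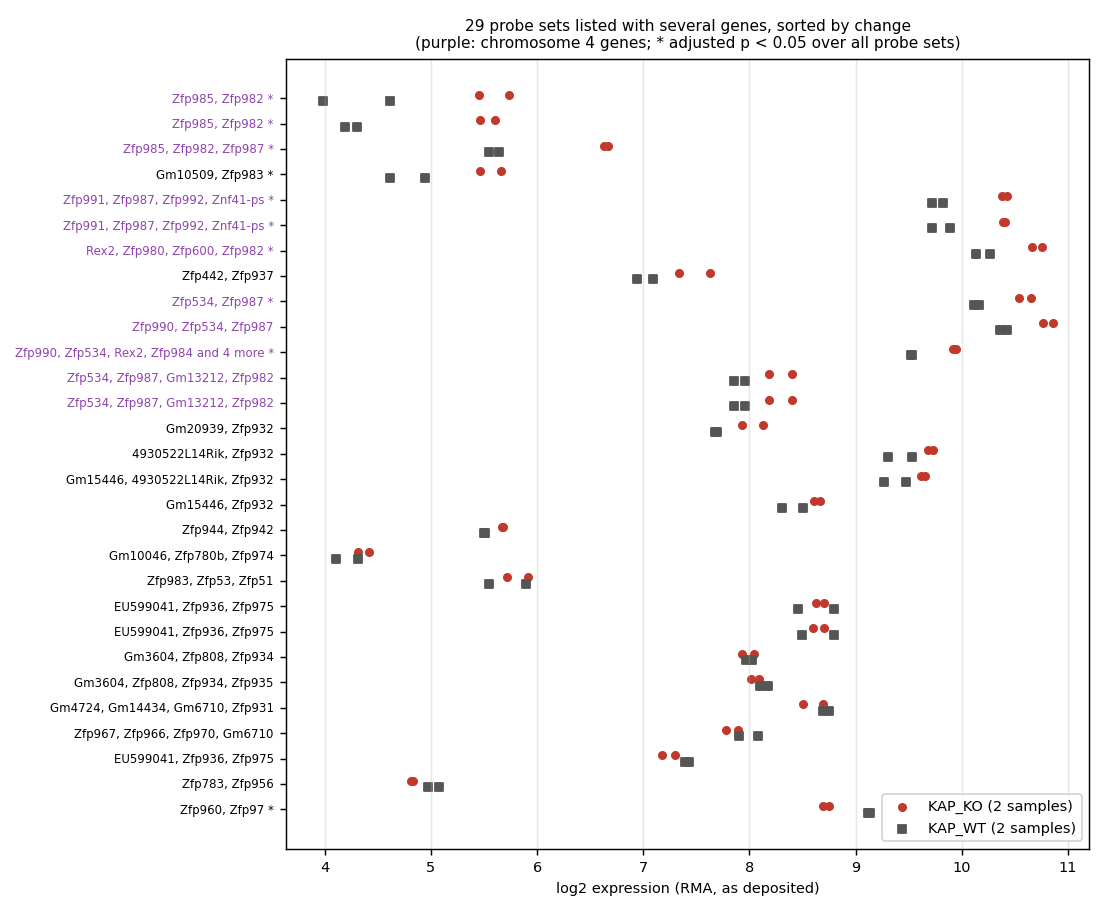
Log2 expression in the 2 KAP_KO samples (circles) and the 2 KAP_WT samples (squares) of the 29 probe sets listed with several genes, at least 1 of them from Zfp900 to Zfp999, sorted by change; purple labels are chromosome 4 genes and a star marks an adjusted p below 0.05 over all probe sets. All 11 purple rows have KAP_KO to the right of KAP_WT, by 0.38 to 1.29.

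Outside chromosome 4 the 18 shared probe sets had 1 rise and 1 fall and a median change of 0.07. Over all probe sets, many of them unnamed, 7.1% were higher and 5.44% lower, so these counts are near that share. The rise was that of a set for Gm10509 and Zfp983, which read 5.46 and 5.66 in KAP_KO samples and 4.61 and 4.94 in KAP_WT samples (log2 0.78, adjusted p = 0.0388). Zfp983's own probe set had a change of -0.01, at a mean level below the lower quartile of the tested genes, and a set for Zfp983, Zfp53 and Zfp51 had a change of 0.10 (adjusted p = 0.739). The fall was that of Zfp960 and Zfp97, which read 8.69 and 8.75 in KAP_KO samples and 9.12 and 9.13 in KAP_WT samples (log2 -0.41, adjusted p = 0.0495). Probe sets differed likewise for Zfp935, with 0.47 on its own set and -0.08 on one shared with Gm3604, Zfp808 and Zfp934 (adjusted p = 0.614). Zfp931 had -0.52 on its own set and -0.12 on a shared one (adjusted p = 0.515). Own and shared sets differed in sign, none past the threshold, for Zfp942 (-0.12 and 0.17), Zfp974 (-0.18 and 0.16) and Zfp975 (0.22 and, on one of its shared sets, -0.18). The 4 probe sets naming Zfp932 had changes of 0.23 to 0.34, none past the threshold (adjusted p = 0.113 to 0.259); ZFP932 and its paralog Gm15446 are known in mouse cells to bind endogenous retroviruses of the ERVK class.

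Motifs were counted in the promoters of all members with an entry, those of chromosome 4 included. They were not counted for the genes numbered below Zfp900, so whether a share is particular to the members was not tested. Of the 32 members, 30 had an entry in the RefSeq table, with 35 windows of 300 bases in all. Zfp930 and Zfp991 had none. A CCAAT box (the letters CCAAT on either strand) was in 25 of the 35 windows (71.4%), against 37.4% of all 32851 windows. An ETS-type motif (GGAAGTG, either strand) was in 13 (37.1%), against 11.0%. The GC box GGGCGG was in 12 (34.3% against 35.7%), and the YY1-type motif GCCATNTT in 3 (8.57% against 6.05%), among them Zfp961 downstream of the bases shown. TATAAA was in 0 windows (13.6% of all), and the octamer ATGCAAAT in 0 (1.74% of all). None of these motifs contains another, and windows of duplicated genes or of several starts of 1 gene are not independent. In the 250 bases upstream of the start, the median GC content was 51.2% in members and 52.4% in all windows. The 4 chromosome 4 windows had 38.4 to 41.6%, and the other 31 had 41.2 to 60.8%. Zfp979 and Zfp933, which did not pass, are among these 4.

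Genes of the machinery through which KRAB zinc finger proteins act were examined beside the members. Of 33 listed, 29 were tested, and 5 rose and 5 fell (34.5%, where 26.9% of all genes passed), with a median change of -0.12. Without Trim28, the deleted gene, 5 of 28 rose and 4 fell (32.1%), with a median change of -0.10. Besides Trim28, the deepest fall was that of Zfp57, a KRAB zinc finger protein that guards imprinted genes, which read 9.80 and 9.61 in KAP_KO samples and 10.79 and 10.86 in KAP_WT samples (log2 -1.12, adjusted p = 5.45e-04). Pphln1, which encodes the periphilin subunit of the HUSH silencing complex, read 8.53 and 8.65 in KAP_KO samples and 7.98 and 8.01 in KAP_WT samples (log2 0.59, adjusted p = 0.00457). Resf1, the retroelement silencing factor, read 9.13 and 8.94 in KAP_KO samples and 8.64 and 8.31 in KAP_WT samples (log2 0.56, adjusted p = 0.0237). In all of these the groups did not overlap.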

How the data were processed

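The deposited table holds log2 expression values for 35556 probe sets, for which the submitters' processing notes name affy and RMA; versions and a build are not given in the sources used here. RMA corrects background, normalises arrays and summarises probes, which compresses differences among dim probe sets. Platform annotation lists 21218 probe sets with 1 gene symbol and 1881 with several; 12457 are unnamed here. Single-symbol probe sets were tested, keeping for each gene the one with the highest mean, which left 18820 genes. KAP_KO was compared with KAP_WT by limma 3.58.1 in R 4.3.3 (lmFit, eBayes; 2 residual and 4.7 prior degrees of freedom), two-sided, with Benjamini-Hochberg adjustment over all genes and a threshold of 0.05. The number of arrays limits the precision. Positions and neighbours came from the GRCm38.p6 gene table, in which all 32 members matched by gene identifier, and promoters from RefSeq. Alignments used Biopython 1.88. No protein table was used here, so finger counts and KRAB boxes were not analysed. By a rule set beforehand the text names Trim28, every member past the threshold, the 3 largest changes among the others, and up to 4 genes of the machinery list. It was also to name members whose own probe sets differ in direction, which did not occur. Any other gene was picked with its value known. The members and lists were chosen with earlier results of these data known. The alternatives were a replicate block, an intensity trend or a robust prior, leaving out genes below the lower quartile, quantile normalization, array medians subtracted, the mean of probe sets, each sample left out, and an adjusted p under 0.1. A fit over all probe sets and a 2 Mb distance were added after seeing the data.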

Additional observations from a re-analysis of the deposited data

Results flagged for a closer look

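Probe sets outside the single-gene comparison carried signal that was higher in KAP_KO than in the KAP_WT samples. These are 9 of the 29 probe sets listed with several genes, each past an adjusted p of 0.05 in limma over all probe sets. Of all probe sets, many of them unnamed, 7.1% were higher. Of the genes tested singly 14.2% were, in a separate fit that called more members, so neither share is a like background. With the replicate block 6 of the 29 were called higher. A pair of sets for Zfp985 and Zfp982 had log2 changes of 1.294 and 1.287, and the set for Zfp985, Zfp982 and Zfp987 one of 1.056. A pair of sets for Zfp991, Zfp987, Zfp992 and Znf41-ps had changes of 0.632 and 0.593. The set for Rex2, Zfp980, Zfp600 and Zfp982 had a change of 0.510, the set for Zfp534 and Zfp987 one of 0.455, and a set naming 8 chromosome 4 genes one of 0.403. The set for Gm10509 and Zfp983, of chromosome 17, had a change of 0.781. Apart from that set and the set for Zfp534 and Zfp987, each names Zfp985, Zfp991 or Zfp980, members called higher on their own probe sets. Each of the 9 was higher in 2 of 2 KAP_KO samples than in both KAP_WT samples. The 9 were picked by their calls, which all but fixes this separation, so it adds no support. The 21.5% of all probe sets that were separated in this way were not picked so, and are not a like background.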

How the results depend on the processing

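Trim28, the 11 called members, Zfp950, Zfp954 and Zfp945 kept their direction in 13 alternatives; of these 195 values, 160 kept their side of the threshold, 26 lost it and 9 gained it. Members with changes near 0 took either sign, as Zfp959 did between -0.28 and 0.38, called in 0 alternatives. Subtracting array medians, which moved the median change of all genes to -0.22 against -0.05, called 44.9% of genes against 26.9%, with 34.0% lower against 12.7% and 11.0% higher against 14.2%. It gave 4 higher and 9 lower members against 6 and 5, and 5 higher and 2 lower shared probe sets against 9 and 1. The 1 lower shared set was not called with the replicate block, a robust prior or repeated quantile normalization (0 each). The fit over all probe sets, added after seeing the data, called 4 members higher and 2 lower. Leaving out each sample in turn, 12.9 to 23.1% of genes were called, 8.13 to 12.8% as higher and 4.78 to 10.3% as lower. The lower members ranged from 0 to 3 and the higher members from 5 to 6; the higher shared sets ranged from 2 to 3, and the lower ones were 0 in each case. In such fits the lone sample is assumed to vary like the other group. Deviations of same-numbered samples had r = 0.133 over all probe sets, and with 2 pairs the numbers do not show a pairing; with the replicate block 7 members were higher and 5 lower, Zfp954 being added (adjusted p = 0.0459), and 6 shared sets were higher against 9. Signal over background is unknown here, which limits what can be said of the dimmest members.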
